A study of Mus musculus with 10 samples.

Results

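The genes described here are 10 genes by which fat cells are recognised, read in the RPE/choroid complex of the mouse, that is, the pigmented epithelium under the retina and its vascular bed. They were taken by symbol from a count table of 55487 genes, and all 10 were found and passed the filter on low counts. Of these, 5 are largely restricted to fat cells, namely Adipoq, Cidec, Cfd, Plin1 and Retn. The other 5, Car3, Pparg, Fabp4, Plin4 and Lipe, are also used by other cells such as skeletal muscle, capillary endothelium or macrophages. The 5 ADQ samples came from iDTR mice that also carried adiponectin-Cre, and the 5 control samples from iDTR mice without it. The iDTR allele, Gt(ROSA)26Sortm1(HBEGF)Awai on C57BL/6, places the diphtheria toxin receptor HBEGF at the Rosa26 locus, where it is made only after Cre acts. The adiponectin promoter drives this Cre, so the toxin is aimed at cells that use that promoter. Both groups were given diphtheria toxin by intraperitoneal injection, daily for 7 weeks in the Cre carriers. The duration is not given for control, and no age, sex or batch is given for any sample. The labels do not say whether each sample is a separate animal, so a p-value here rests on sample-to-sample spread that could be technical in part.

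White fat cells store triglyceride in 1 large droplet and secrete hormones into blood. The nuclear receptor PPARG, with C/EBP factors, switches on the genes of the mature fat cell. Perilipins and CIDE proteins coat and enlarge the droplet, lipases empty it, and adiponectin, adipsin and resistin are released. Retina and choroid hold few fat cells, while the orbit around the eye is rich in fat.

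Libraries held 43591245 to 64087660 counts in ADQ and 47997064 to 50974422 counts in control, and the difference in mean total was within the spread between samples (two-sided exact permutation p = 0.921, n = 5 each). RPE markers summed to 28460 to 41200 CPM in ADQ and 33020 to 46490 CPM in control, so the defining transcripts of the labelled tissue were abundant in all libraries. Here CPM is the depth-scaled count, that is, counts relative to the TMM-scaled library total. A single library, control 5, stood apart. It was the lowest of the controls in all 5 fat-restricted genes and in Car3, and it lay within or below the ADQ range in each of them. Each comparison is therefore given with all 5 controls and with controls 1 to 4. Control 5 was left out because its low values were known, so the second form describes the remaining libraries and is no independent support.

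The promoters of 3 genes are printed because the Adipoq promoter drives the Cre and because the ratios of Cfd to Cidec and to Adipoq turned out to differ between the groups. Each runs from 250 bases before to 50 bases after the RefSeq start site on GRCm38.p6, 5′ to 3′ on the gene's strand. RefSeq windows were found for 8 of the 10 genes, 12 windows in all. Capitals mark CCAAT (also as ATTGG on the other strand), AGGTCA, the repeat unit of the element bound by PPARG with its partner RXR, and TATAAA, each searched on both strands. The 3 windows are chr16:23146286-23146585 on the plus strand for Adipoq, chr10:79890603-79890902 on the plus strand for Cfd, and chr6:113435711-113436010 on the minus strand for Cidec.
Adipoq: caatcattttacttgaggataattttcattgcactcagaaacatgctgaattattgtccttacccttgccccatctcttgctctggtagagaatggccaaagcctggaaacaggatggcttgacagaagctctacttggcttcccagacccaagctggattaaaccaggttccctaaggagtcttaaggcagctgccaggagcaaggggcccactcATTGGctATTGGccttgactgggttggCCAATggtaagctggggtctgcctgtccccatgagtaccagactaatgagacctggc
Cfd: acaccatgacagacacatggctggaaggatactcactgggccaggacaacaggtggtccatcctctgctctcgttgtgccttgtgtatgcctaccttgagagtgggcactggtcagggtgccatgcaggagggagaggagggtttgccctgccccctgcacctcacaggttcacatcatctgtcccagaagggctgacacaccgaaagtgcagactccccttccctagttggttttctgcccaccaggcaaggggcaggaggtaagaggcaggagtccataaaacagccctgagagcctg
Cidec: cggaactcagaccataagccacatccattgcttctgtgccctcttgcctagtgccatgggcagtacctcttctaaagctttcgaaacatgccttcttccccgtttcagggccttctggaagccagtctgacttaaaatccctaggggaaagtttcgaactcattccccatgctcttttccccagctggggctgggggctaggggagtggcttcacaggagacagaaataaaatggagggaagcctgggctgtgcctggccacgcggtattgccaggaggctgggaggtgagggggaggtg
The Adipoq window held 3 CCAAT boxes, which began 34, 27 and 7 bases before the start site, and the Cfd and Cidec windows held no match to any of these motifs. Among 32841 promoter windows of the same length, 37.4% held CCAAT, 16.3% AGGTCA and 13.6% TATAAA. The full PPAR element, the DR1 pair of AGGTCA repeats 1 base apart, was in 0.0396% of them and in none of the 12 windows of these genes. A match is a description of letters and not a measured site.

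Of the secreted products, Cfd differed most between the groups. Cfd encodes adipsin, the complement factor D protease that fat cells release. It had 336, 101, 325, 59 and 261 counts in ADQ 1 to 5, and 1432, 3810, 1989, 2319 and 128 counts in control 1 to 5. The 5 ADQ libraries and control 5 lay between 59 and 336 counts, and the other 4 controls all held 1432 counts or more. Cfd averaged 4.16 ± 2.59 CPM in ADQ and 39.9 ± 26.4 CPM in control (SD, n = 5 each). Its log2 fold change, ADQ over control, was -3.26 (95% interval -5.17 to -1.36), and it did not pass over all genes tested (edgeR quasi-likelihood test, Benjamini-Hochberg adjusted p = 0.143). Against controls 1 to 4, which averaged 49.2 ± 18.7 CPM (SD, n = 4), Cfd fell 11.8-fold (log2 fold change -3.57, SE 0.53, edgeR adjusted p = 0.0143). In these bulk samples fewer fat cells and less RNA per fat cell cannot be told apart. Nor can fat cells of the choroid be told from those of orbital fat in the dissected tissue. Control 5, from mice without the Cre, was at 2.66 CPM, inside the ADQ range of 1.30 to 7.27 CPM, and the cause was not tested.

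Adipoq encodes adiponectin. It had 77, 23, 70, 8 and 64 counts in ADQ 1 to 5, and 177, 402, 240, 237 and 0 counts in control 1 to 5. All ADQ libraries thus lay under controls 1 to 4 and above control 5. The mean was 0.923 ± 0.614 CPM in ADQ and 4.36 ± 2.85 CPM in control (SD, n = 5 each). A count of 0 allows up to 3 counts, or 0.0624 CPM, in control 5 by counting error. The log2 fold change was -2.23 with all controls (SE 1.01, edgeR adjusted p = 0.369). Against controls 1 to 4 Adipoq fell 5.88-fold (log2 fold change -2.56, SE 0.50, edgeR adjusted p = 0.0248). Retn, which encodes the hormone resistin, had 107, 48, 71, 23 and 67 counts in ADQ 1 to 5, and 129, 241, 157, 250 and 16 counts in control 1 to 5. ADQ 1 came close to control 1 here, at 2.32 CPM in ADQ 1 against 2.96 CPM in control 1. Retn averaged 1.23 ± 0.678 CPM in ADQ and 3.30 ± 1.97 CPM in control (SD, n = 5 each). Its log2 fold change was -1.42 (SE 0.59, edgeR adjusted p = 0.323), and Retn fell 3.29-fold against controls 1 to 4 (edgeR adjusted p = 0.0357).

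**Figure D1:**
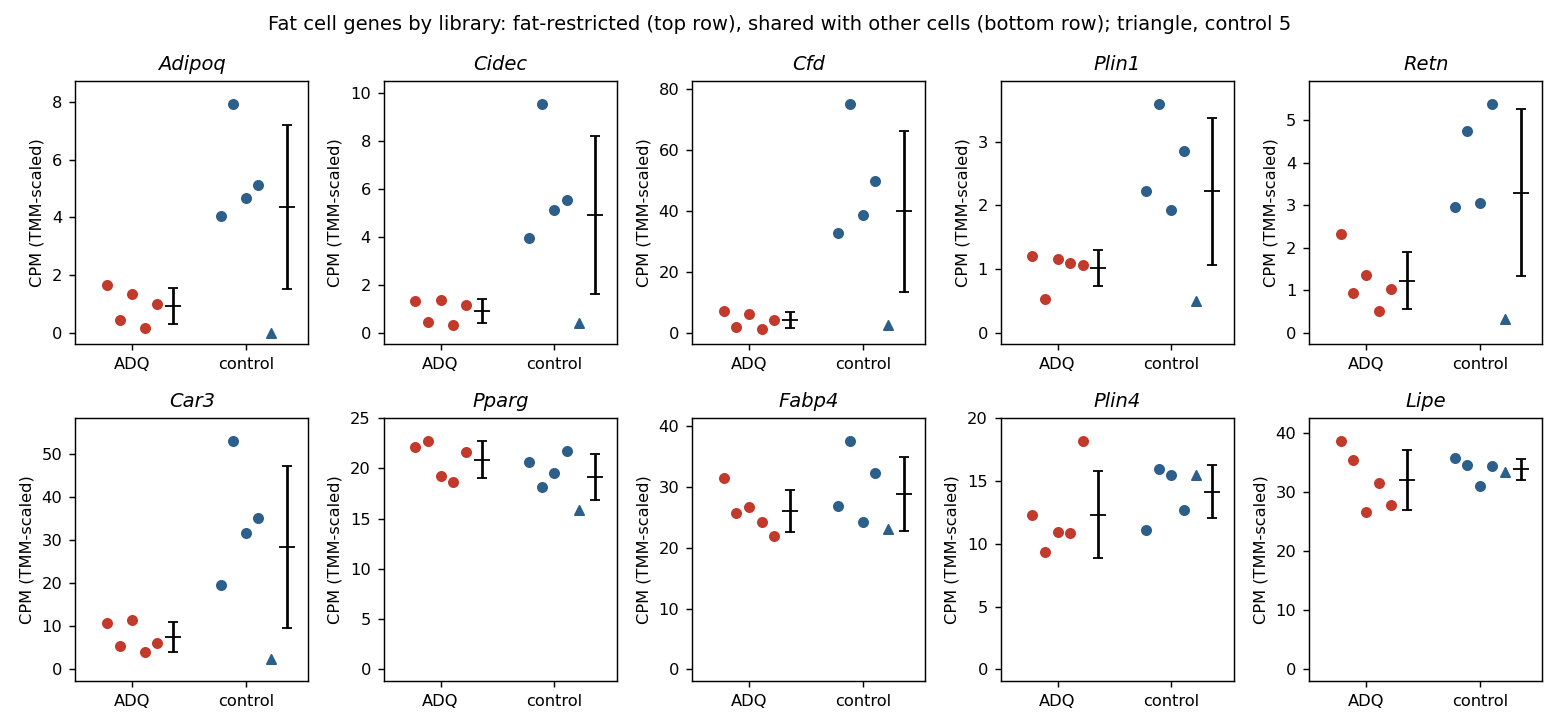
TMM-scaled CPM of the 10 genes in each library, with ADQ left and control right in every panel; points are libraries 1 to 5 from left to right, and the bar gives mean ± SD (n = 5). In the 5 fat-restricted genes and Car3, controls 1 to 4 lie above all ADQ libraries while control 5 (triangle) does not, and Pparg, Fabp4, Plin4 and Lipe overlap.

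The droplet proteins came next. Cidec, which drives the fusion of droplets into 1 large one, had 61, 23, 72, 14 and 74 counts in ADQ 1 to 5, and 172, 483, 263, 257 and 20 counts in control 1 to 5. Control 5 lay inside the ADQ range and the other controls above it. Cidec averaged 0.919 ± 0.503 CPM in ADQ and 4.91 ± 3.28 CPM in control (SD, n = 5 each; log2 fold change -2.41, SE 0.69, edgeR adjusted p = 0.168). Against controls 1 to 4 it fell 6.54-fold (log2 fold change -2.71, SE 0.43, edgeR adjusted p = 0.00523), the smallest adjusted p of the 10 genes. Plin1, the perilipin that gates lipase access to the droplet of fat cells, had 56, 27, 61, 50 and 69 counts in ADQ 1 to 5, and 97, 182, 99, 132 and 24 counts in control 1 to 5. ADQ 2 was lower than the other ADQ libraries, and Plin1 had the smallest fold change of the 5 restricted genes. It averaged 1.01 ± 0.277 CPM in ADQ and 2.22 ± 1.15 CPM in control (SD, n = 5 each). The log2 fold change was -1.13 (SE 0.41, edgeR adjusted p = 0.258), and against controls 1 to 4 Plin1 fell 2.61-fold (edgeR adjusted p = 0.0286).

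Car3 encodes carbonic anhydrase 3, abundant in fat cells and also in skeletal muscle. It had 503, 273, 604, 180 and 398 counts in ADQ 1 to 5, and 857, 2691, 1621, 1630 and 121 counts in control 1 to 5. It followed the fat-restricted genes, with control 5 the lowest library of all. Car3 averaged 7.57 ± 3.41 CPM in ADQ and 28.4 ± 18.8 CPM in control (SD, n = 5 each; log2 fold change -1.91, SE 0.68, edgeR adjusted p = 0.279). Without control 5 it fell 4.61-fold (edgeR adjusted p = 0.0238). The 10 skeletal muscle markers summed to 1799, 2134, 1884, 2040 and 400 CPM in ADQ 1 to 5, and to 1315, 2432, 2375, 3079 and 2270 CPM in control 1 to 5. Muscle markers in control 5 were thus near those of controls 2 and 3 while its Car3 was 2.51 CPM, against 53.1 and 31.6 CPM in those libraries. Of the 10 muscle markers 0 passed with edgeR, DESeq2 or voom, 0 had an unadjusted p under 0.05, and the median log2 fold change was -0.51.

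The 4 remaining shared genes gave overlapping values in the groups. Pparg, the nuclear receptor that directs fat cell differentiation and also works in macrophages, averaged 20.9 ± 1.84 CPM in ADQ and 19.2 ± 2.29 CPM in control (SD, n = 5 each). Its fold change was 1.09, with a 95% interval of 0.932 to 1.27. Fabp4, a fatty acid carrier of fat cells, capillary endothelium and macrophages, averaged 26.0 ± 3.51 CPM in ADQ and 28.8 ± 6.08 CPM in control, a fold change of 0.904 (95% interval 0.735 to 1.11). Lipe, hormone-sensitive lipase, averaged 32.0 ± 5.09 CPM in ADQ and 33.8 ± 1.78 CPM in control, a fold change of 0.947 (95% interval 0.809 to 1.11). Plin4, a perilipin of fat and muscle, averaged 12.3 ± 3.44 CPM in ADQ and 14.1 ± 2.12 CPM in control, a fold change of 0.872 (95% interval 0.675 to 1.13). The libraries ranged from 18.6 to 22.8 CPM in ADQ and 15.8 to 21.7 CPM in control for Pparg, and from 22 to 31.5 CPM in ADQ and 23 to 37.6 CPM in control for Fabp4. For Lipe they ranged from 26.6 to 38.7 CPM in ADQ and 31.0 to 35.7 CPM in control, and for Plin4 from 9.33 to 18.2 CPM in ADQ and 11.1 to 15.9 CPM in control. Control 5 lay at the low end of the controls for Pparg and Fabp4 and not for Lipe or Plin4. The edgeR adjusted p of these 4 genes ran from 0.606 to 0.760, and none passed against controls 1 to 4 (edgeR adjusted p from 0.540 to 0.820). Changes inside these intervals were not detectable here, and reads of Pparg, Plin4 and Lipe may include those of 1 gene on the opposite strand that overlaps each, since the strand setting is not given in the sources used here. Endothelial markers summed to 950 to 1331 CPM in ADQ and 1089 to 1369 CPM in control, and macrophage markers to 6089 to 9562 CPM in ADQ and 5547 to 7759 CPM in control; their part in the Fabp4 and Pparg levels was not tested.

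Over the 10 genes, 0 passed the edgeR test with all 10 libraries and 5 had an unadjusted p under 0.05. DESeq2 called 2 of them lower, Cidec and Cfd, and over the 41319 genes it was given called 266 lower and 502 higher. Voom with quality weights called 0 of them, and 153 lower and 511 higher over 20684 genes. Among the 20684 genes tested with edgeR, 0.827% were called in either direction, 0.74% higher and 0.087% lower. At an unadjusted edgeR p under 0.05, 5.85% were lower, as 5 of the 10 genes were. The median log2 fold change was -2.23 for the 5 restricted genes and -0.15 for the 5 shared ones, beside 0.01 for all genes tested. Against controls 1 to 4, 6 of the 10 genes fell, the 5 restricted genes and Car3, where 0.195% of 21048 genes were called lower, 1.5% higher and 1.7% in either direction. In these 6 genes every ADQ library lay below every one of the 4 controls, which held for 2.03% of all genes tested (5.56% for no overlap in either direction). With all 5 controls it held for 0 of the 10 genes and for 1.07% of all genes tested. Control 5 was left out for its low values in fat cell genes. Without it, these genes and all genes are therefore not compared alike. Leaving out 1 further library gave 2 to 6 calls, with 2 without control 4 or ADQ 2 and 3 without control 2 or ADQ 3, and with no count filter 4 of the 10 genes were called. Of 16 alternatives run without control 5, Adipoq lost its call in 7, Plin1 in 7, Retn in 6 and Car3 in 4. Their edgeR adjusted p reached 0.116, 0.107, 0.142 and 0.0877 in that order. For Adipoq these included leaving out any one of controls 1 to 4 (edgeR adjusted p from 0.0518 to 0.0721). Cidec and Cfd kept an adjusted p of at most 0.0419 under every alternative run without control 5. The authors' deposited table lists all 10 genes and calls 0 of them at an adjusted p under 0.05, where it calls 5.42% of its 15860 genes (859) in either direction and 1.63% (258) lower. Its smallest adjusted p among them is 0.0720, for Cfd, with a log2 fold change of -3.90 (95% interval -6.47 to -1.33 in the authors' deposited table).

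**Figure D2:**
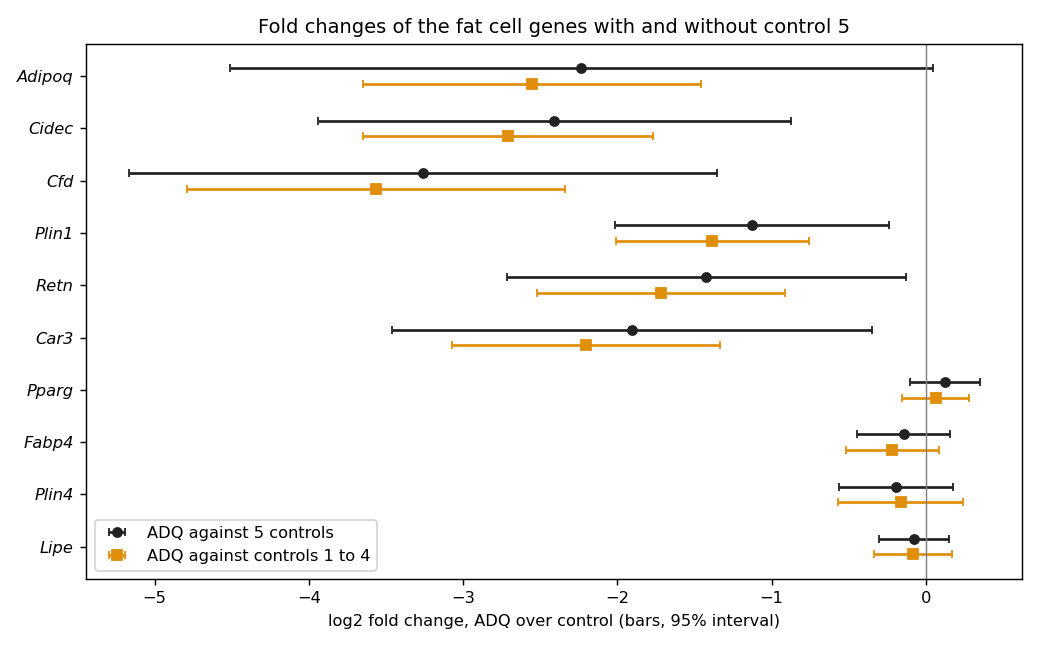
Log2 fold changes of the 10 genes, ADQ over control, with 95% intervals from the edgeR fit, for all 5 controls (circles) and for controls 1 to 4 (squares). The 5 restricted genes and Car3 lie below 0 in both, with narrower intervals without control 5, and Pparg, Fabp4, Plin4 and Lipe lie near 0.

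On GRCm38 the restricted genes lie apart, Adipoq on chromosome 16 (23146536 to 23158028), Cidec on chromosome 6 (113424634 to 113435760), Cfd on chromosome 10 (79890853 to 79892655), Plin1 on chromosome 7 (79720218 to 79732903) and Retn on chromosome 8 (3655770 to 3660110). Car3 (14863512 to 14872523) and Fabp4 (10204088 to 10208576) are on chromosome 3. Pparg is on chromosome 6 (115360951 to 115490399), Plin4 on chromosome 17 (56100591 to 56109803) and Lipe on chromosome 7 (25379527 to 25398710).

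The restricted genes kept much the same order of libraries. In ADQ, libraries 1 and 3 were the highest and library 4 the lowest for Adipoq, Cidec, Cfd, Retn and Car3, and for Plin1 libraries 1 and 3 were again highest but library 2 lowest. In control, library 2 was the highest for Adipoq, Cidec, Cfd, Plin1 and Car3, library 4 for Retn, and library 5 the lowest for all of them. The summed level of the 5 restricted genes was 13.8, 4.34, 11.4, 3.38 and 8.28 CPM in ADQ 1 to 5, and 46.0, 101.0, 53.6, 68.9 and 3.91 CPM in control 1 to 5. Control 5 thus lay between ADQ 2 and ADQ 4.

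Ratios between the genes within a library do not depend on its depth or scaling. The ratio of Cfd counts to Cidec counts was 5.51, 4.39, 4.51, 4.21 and 3.53 in ADQ 1 to 5, and 8.33, 7.89, 7.56, 9.02 and 6.4 in control 1 to 5. Every ADQ library was below every control, control 5 included, although the exact 95% counting interval of control 5 (3.98 to 10.8, from 128 and 20 counts) reaches into the ADQ values. The mean log2 ratio was 2.13 ± 0.23 in ADQ and 2.96 ± 0.18 in control (SD, n = 5 each), a difference of -0.83. The ratio of Cfd to Car3 was 0.328 to 0.668 in ADQ and 1.06 to 1.67 in control, and that of Cfd to Retn 2.10 to 4.58 in ADQ and 8 to 15.8 in control. The ratio of Cfd to Adipoq was 4.08 to 7.38 in ADQ and 8.09 to 9.79 in the 4 controls with Adipoq counts. Cfd was thus lower in ADQ relative to 4 of the 5 genes it was set against. Relative to Plin1 the groups overlapped through control 5 (5.33), with 1.18 to 6.00 in ADQ and 14.8 to 20.9 in controls 1 to 4.

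Of the 15 ratios among Cfd, Adipoq, Cidec, Retn, Plin1 and Car3, 5 had groups that did not overlap, 4 of them with Cfd and the other that of Adipoq to Plin1. The ratios were chosen after the counts were seen and carry no test. Among 20340 genes with counts in every library, 0.00492%, which is Cfd alone, had a lower ratio to Cidec in every ADQ library than in every control. That share is small by construction, since Cidec itself was low in ADQ and a gene of constant level then has a higher ratio. The ratio of Adipoq to Cidec was 1.26, 1.00, 0.972, 0.571 and 0.865 in ADQ 1 to 5, and 1.03, 0.832, 0.912 and 0.922 in control 1 to 4. The groups overlapped, and the lowest ratio, in ADQ 4, rests on 8 and 14 counts. At the ratios of controls 1 to 4, the 20 Cidec counts of control 5 would go with 16.6 to 20.6 Adipoq counts, and 0 were counted. Control 5 was near the other controls in Cidec to Car3, at 0.165 beside 0.158 to 0.201, and apart from them in Plin1 to Cidec, at 1.20 beside 0.376 to 0.564. ADQ libraries had a Plin1 to Cidec ratio of 0.847 to 3.57.

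**Figure D3:**
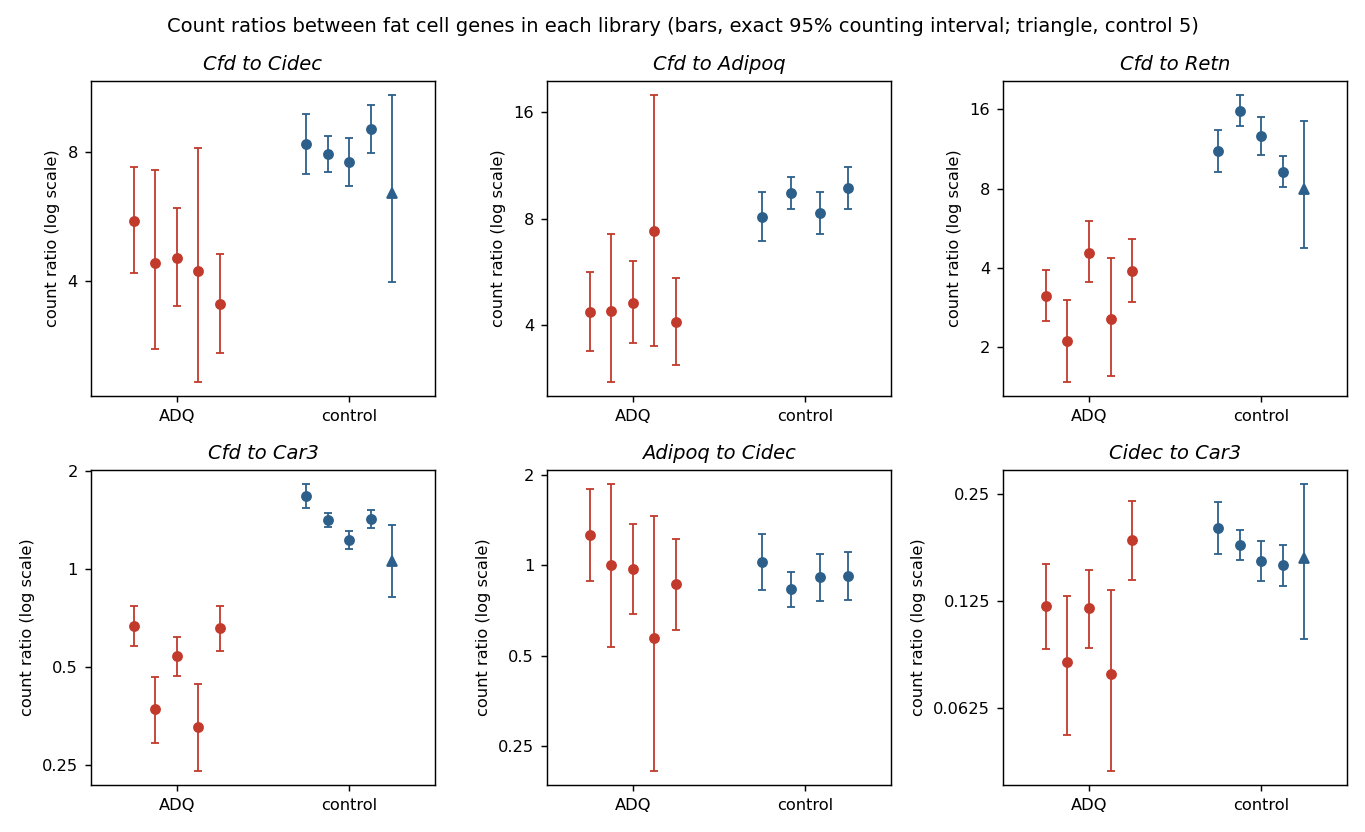
Count ratios between pairs of fat cell genes in each library, on a log scale, with exact 95% counting intervals; ADQ is left of control and control 5 is a triangle (absent where Adipoq was 0). The Cfd ratios to Cidec, Adipoq, Retn and Car3 are lower in every ADQ library, with control 5 included except for Adipoq, while Adipoq to Cidec overlaps.

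Other genes of fat were read from fixed lists, drawn up with earlier results of these data known. Of 20 further fat cell genes tested, 0 passed with edgeR, DESeq2 or voom and 5 had an unadjusted edgeR p under 0.05. Of these 5, Gpd1, Gpihbp1 and Hp were lower in ADQ, and Nnat and Orm1 higher. Over all genes tested 5.85% were lower at that p, and the share higher was not taken. The same share applies to the lists below. The median log2 fold change of the 20 genes was -0.04. Most of that list is used by other cells too, and its summed level was 708 to 755 CPM in ADQ and 628 to 823 CPM in control. Gpd1, which makes glycerol phosphate for triglyceride, averaged 13.0 ± 2.23 CPM in ADQ and 19.2 ± 5.43 CPM in control (SD, n = 5 each; log2 fold change -0.57, edgeR adjusted p = 0.201). Hp, the haemoglobin-binding haptoglobin, averaged 7.24 ± 4.54 CPM in ADQ and 32.6 ± 37.6 CPM in control, where control 2 held 97.7 CPM (edgeR adjusted p = 0.320). Nnat, neuronatin, averaged 6.53 ± 4.54 CPM in ADQ and 3.31 ± 0.432 CPM in control (edgeR adjusted p = 0.275), and Orm1, an acute-phase protein, 7.88 ± 3.43 CPM in ADQ and 4.80 ± 1.58 CPM in control (edgeR adjusted p = 0.296). Adig, Pck1 and Aqp7, picked from the 24 listed genes after their values were seen, were also lowest, among the controls, in control 5. This was neither particular to them nor shared by the whole list. Of the genes just given, Hp was lowest there too, and so was Nnat, which averaged higher in ADQ. Gpd1 and Orm1 were not lowest there. Adig, adipogenin, was at 0.584, 0.294, 0.191, 0 and 0.464 CPM in ADQ 1 to 5, and 0.733, 1.07, 0.936, 1.36 and 0.0416 CPM in control 1 to 5. Pck1, an enzyme of glyceroneogenesis, was at 0.0440 to 0.896 CPM in ADQ, 0.690 to 3.75 CPM in controls 1 to 4, and 0.0416 CPM in control 5. Aqp7, the glycerol channel, was at 0.0619 to 0.433 CPM in ADQ, 0.229 to 0.949 CPM in controls 1 to 4, and 0.0416 CPM in control 5. Controls 1 to 4 lay above all ADQ libraries for Adig and overlapped them for Pck1 and Aqp7. None of the 3 passed, also against controls 1 to 4 (edgeR adjusted p of 0.283, 0.179 and 0.292). Lep, the leptin gene, was under 1 CPM in all 10 libraries and was not tested.

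Of 15 genes of lipolysis and the lipid droplet, many of them shared by most cells, 0 passed with edgeR, 1 was called with DESeq2 and 0 with voom. At an unadjusted edgeR p under 0.05, 4 were lower in ADQ, where 5.85% of all genes tested were. A log2 fold change below 0 was seen in 13, where 48.2% of all genes tested had one. The median log2 fold change of the 15 genes was -0.21. Hilpda, a hypoxia-induced inhibitor of triglyceride lipase, came nearest, with 24.4 ± 2.59 CPM in ADQ and 33.6 ± 5.11 CPM in control (SD, n = 5 each; log2 fold change -0.46, SE 0.11, edgeR adjusted p = 0.0845). Plin5, the perilipin of oxidative tissue, averaged 2.20 ± 0.606 CPM in ADQ and 3.73 ± 1.09 CPM in control (log2 fold change -0.76, edgeR adjusted p = 0.209). Abhd5, the activator of that lipase, averaged 47.1 ± 0.911 CPM in ADQ and 53.6 ± 2.56 CPM in control (log2 fold change -0.19, edgeR adjusted p = 0.263). Mgll, monoacylglycerol lipase, averaged 987 ± 184 CPM in ADQ and 1229 ± 159 CPM in control (edgeR adjusted p = 0.328). In control 5 these genes were at 29.5, 5.17, 54.0 and 1234 CPM in that order, and the other controls held 29.7 to 41.9, 2.61 to 4.10, 50.1 to 57.2 and 1025 to 1440 CPM.

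Brown fat markers gave no call (0 of 8 tested with edgeR, DESeq2 or voom, 0 at an unadjusted p under 0.05, median log2 fold change -0.15), and Ucp1, the uncoupling protein that defines brown fat, was at 0 to 0.114 CPM across all libraries. Genes of fat cell precursors and stroma gave no edgeR call either (0 of 11 tested, 3 at an unadjusted p under 0.05, all lower in ADQ, 1 call with DESeq2, 0 with voom, median log2 fold change -0.02). Among them Dlk1, a precursor protein lost as fat cells mature, averaged 13.9 ± 3.24 CPM in ADQ and 19.9 ± 2.87 CPM in control (log2 fold change -0.52, edgeR adjusted p = 0.159), and Pi16, a marker of fibroblast progenitors, 170 ± 20.1 CPM in ADQ and 221 ± 58.5 CPM in control (edgeR adjusted p = 0.330). The receptor for adiponectin Adipor2 averaged 56.5 ± 11.8 CPM in ADQ and 78.0 ± 15.6 CPM in control (log2 fold change -0.47, edgeR adjusted p = 0.228), and Adipor1 441 ± 42.7 CPM in ADQ and 460 ± 23.3 CPM in control (edgeR adjusted p = 0.788). Hbegf, whose counterpart in the iDTR allele serves as the toxin receptor, averaged 20.3 ± 2.24 CPM for the mouse gene in ADQ and 25.5 ± 4.47 CPM in control (edgeR adjusted p = 0.268). Of the 5 genes of this list, with Appl1 and Cdh13, 0 passed with edgeR, DESeq2 or voom. An unadjusted edgeR p under 0.05 was seen in 2, Adipor2 and Hbegf, both lower in ADQ.

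Markers of tissue around the eye were unevenly spread over the libraries, and their part in the fat gene differences was not tested. Surface epithelium markers, mainly keratins of cornea and conjunctiva, summed to 0.743 to 2.13 CPM in ADQ, and to 171, 2.29, 2073, 65.0 and 540 CPM in control 1 to 5, with Krt12 under 0.3 CPM in all libraries. Control 2, the highest control in Adipoq, Cidec and Cfd, was thus the lowest control in keratins, and control 5, the lowest in fat genes, was the second highest. Every ADQ library was below every control in this sum, though narrowly for control 2 (2.29 CPM, beside 2.13 CPM in ADQ 2). By gene, control 2 lay above all ADQ libraries for Krt5 and Krt13 and inside their range for Krt4 and Krt15. It lay below all ADQ libraries for Krt12 and Trp63. Krt14 had 0 counts in control 2, as in ADQ 1 and ADQ 4. Of the 7 listed genes 5 passed edgeR's count filter, and of these 0 passed the test with edgeR (4 at an unadjusted p under 0.05, all lower in ADQ) or voom. DESeq2, run on all 7 without that filter, called 5, where it called 266 genes lower and 502 higher of the 41319 it was given. Rod markers summed to 318 to 3506 CPM in ADQ and 309 to 1768 CPM in control, and 0 of 8 passed or had an unadjusted p under 0.05. Harderian and lacrimal gland markers summed to 109 to 139 CPM in ADQ and 88.7 to 129 CPM in control, with 0 of 5 called by edgeR and 1 called by DESeq2. At an unadjusted edgeR p under 0.05 there were 2, Aqp5 lower and Elovl4 higher in ADQ. The skeletal muscle sums given above were similar in ADQ 1 to 4 and lower in ADQ 5. Without ADQ 5 the log2 fold change was -2.26 for Adipoq, -2.50 for Cidec, -3.25 for Cfd, -1.15 for Plin1, -1.37 for Retn and -1.84 for Car3, and none of them passed (edgeR adjusted p from 0.212 to 0.417). Of 8 macrophage markers, Aif1 and Adgre1 rose and 0 fell. Aif1, a calcium-binding protein of macrophages and microglia, averaged 53.7 ± 7.89 CPM in ADQ and 28.3 ± 5.90 CPM in control (edgeR adjusted p = 0.00756). Adgre1, which encodes the F4/80 antigen, averaged 68.7 ± 6.85 CPM in ADQ and 49.6 ± 6.19 CPM in control (edgeR adjusted p = 0.0476, and 0.0699 against controls 1 to 4). Without control 5, Aif1 was the 1 gene called by edgeR among all the lists other than the 10 fat cell genes.

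**Figure D4:**
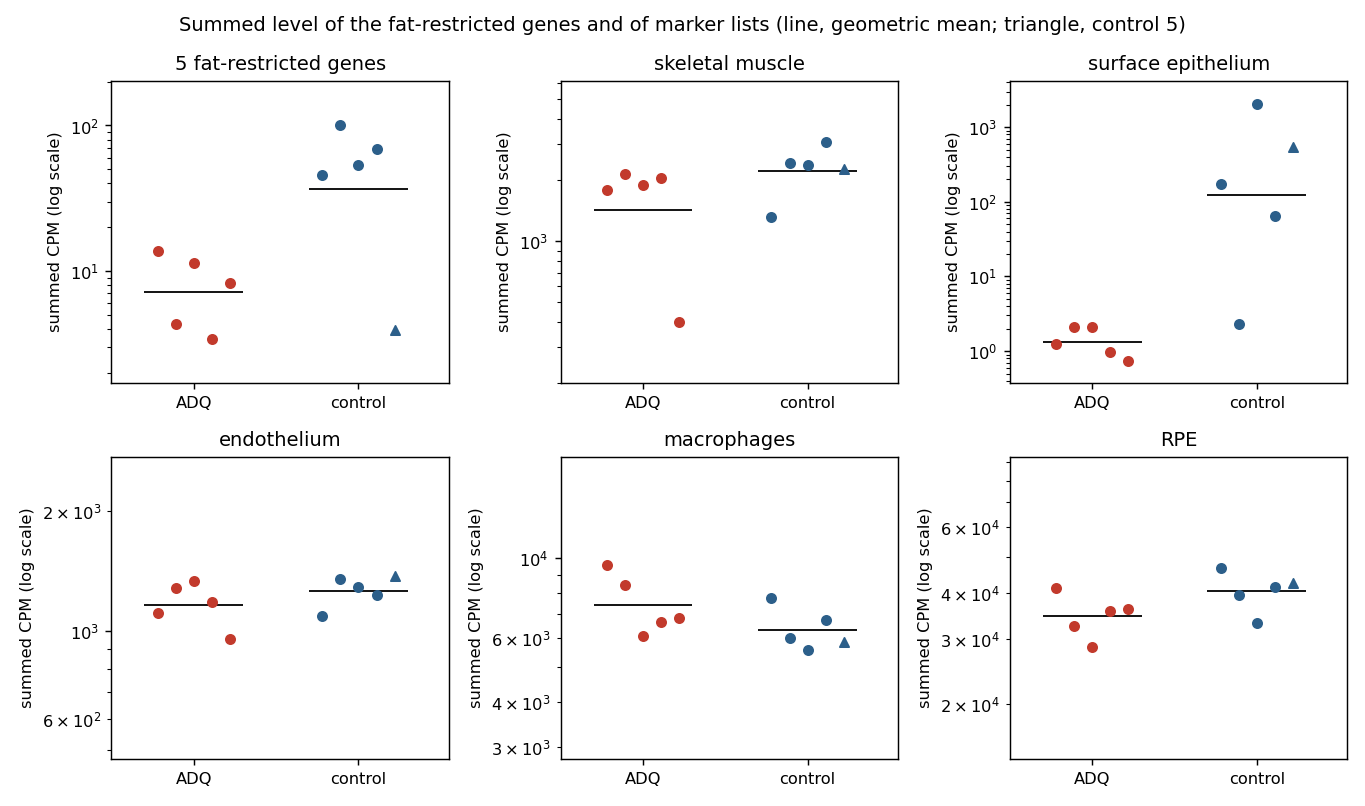
Summed CPM of the 5 fat-restricted genes and of 5 marker lists in each library, on log scales, with ADQ left of control; lines are geometric means and control 5 is a triangle. Control 5 lies with the ADQ libraries in the fat-restricted genes and with the other controls in skeletal muscle, and ADQ 5 is low in skeletal muscle. All ADQ libraries lie below all controls in surface epithelium, narrowly so for control 2.

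The genes whose pattern was most like that of the 5 restricted genes were ranked among 13736 other protein-coding genes averaging 1 CPM or more, by Pearson's r of log2 CPM with the mean of the 5 genes over the 10 libraries. The values describe these libraries, which share their groups, and carry no test. Cyp2e1, a cytochrome P450 that oxidises ethanol, was at 2.81 to 6.62 CPM in ADQ, 5.39 to 14.2 CPM in controls 1 to 4 and 2.12 CPM in control 5 (r = 0.911; edgeR adjusted p = 0.348). Also among the 10 highest were Stx6, Cdk20, Kcnk13, St7l, Rragd, Mtor, Dhrs2 and Mrs2, with r from 0.890 to 0.934 and log2 fold changes between -0.51 and -0.08, none passing. Car3, had it been ranked, had r = 0.987, Fabp4 0.679, and Pparg, Plin4 and Lipe between 0.175 and 0.249.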

How the data were processed

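RNA of mouse RPE/choroid was extracted with TRIzol and a NucleoSpin kit and made into cDNA with a SMARTer kit, per the labels' protocols. The submitters' processing notes name GRCm38, bcl2fastq, DRAGEN, edgeR and limma, with no roles or versions. The authors deposited whole-number counts per gene for 10 libraries, and a table of log2 fold changes with p-values; the authors' log2 values and p-values were only quoted, as deposited. The counts were used as deposited after removal of 287 repeated gene entries. Genes were kept by edgeR's filterByExpr (minimum count 10, minimum total 15), scaled by TMM and tested with the robust quasi-likelihood test of edgeR 4.0.16 in R 4.3.3, with Benjamini-Hochberg adjustment over all genes kept and calls at an adjusted p under 0.05. SE and 95% intervals come from that fit. Alternatives were DESeq2 1.42.0, voom with quality weights (limma 3.58.1), other scalings and filters, a replicate block, and leaving out each library. Leaving out control 5 together with another choice was added after the data were seen. The fits were tested on simulated data with 200 changed genes. With all controls, 35.8%, 61.2% and 98.5% of 1.5-, 2- and 4-fold changes were found, with 16 false calls. Without control 5 these were 29.9%, 80.6% and 95.5%, with 11 false calls. The changed genes were drawn at random among those averaging 1 CPM or more, and no simulated library was set apart from its group as control 5 was. These shares therefore do not carry over to the fat-restricted genes and Car3.

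Gene positions are those of GENCODE on GRCm38. Intervals of count ratios and floors of 3 counts cover counting error only. The members and gene lists were chosen with earlier results of these data known. Named genes are the 10 members, up to 4 tested genes with the smallest p in a list, and the 10 protein-coding genes most correlated with the restricted ones; Adig, Pck1, Aqp7 and the untested Lep, Ucp1 and Krt12 fall outside this rule and were chosen after their values were seen. One of the correlated genes is not reported here. The labels state no pairing by library number, so the main fit used none.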

Additional observations from a re-analysis of the deposited data

Results flagged for a closer look

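Values were flagged where 1 library lay far from the others of its group, by Dixon's test at its 95% critical value. This held for 7 of 80 groups of values, and chance flags about 1 in 20. No value of control 5 was flagged, neither in the fat-restricted genes or Car3 nor in any sum. Plin1 was at 0.528 CPM in ADQ 2, and at 1.07 to 1.21 CPM in the other ADQ libraries. The ratio of Cfd to Adipoq counts was 7.38 in ADQ 4, and 4.08 to 4.64 in the other ADQ libraries. The ratio of Adipoq to Car3 counts was 0.206 in control 1, and 0.145 to 0.149 in controls 2 to 4. Skeletal muscle markers summed to 399.9 CPM in ADQ 5, and to 1799 to 2134 CPM in the other ADQ libraries. Preadipocyte and stromal genes summed to 929 CPM in ADQ 5, and to 1013 to 1028 CPM in the other ADQ libraries. Rod markers summed to 1768 CPM in control 1, and to 309 to 408 CPM in the other controls. Surface epithelium markers summed to 2073 CPM in control 3, and to 2.29 to 540.3 CPM in the other controls.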

How the results depend on the processing

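No log2 fold change of the 10 genes changed direction under any alternative. With all controls, 153 genes were called higher and 18 lower in ADQ, and 0 of the 10 genes. DESeq2 called 502 higher and 266 lower, with 2 of the 10 genes lower, and voom with quality weights 511 and 153. Without a count filter 32 genes were lower, and with the non-robust fit 41, with 1 of the 10 genes, Cfd. Leaving out 1 library gave 69 to 316 genes higher, 5 to 41 lower and 0 to 6 of the 10 genes lower. The 6 came only without control 5. Counts of genes moved by over 1.5 times without control 1 (90 higher, 6 lower), control 2 (96, 41), control 4 (69, 9), control 5 (316, 41), ADQ 2 (76, 5), ADQ 3 (94, 5) and ADQ 4 (80, 7). A replicate block gave 392 higher and 302 lower, with 0 of the 10 genes. Same-numbered libraries had correlations of deviations from -0.113 to 0.163, and 2 of 10 correlated best with their own number. The labels state no pairing, so whether same-numbered libraries share more than a number is not known. Against controls 1 to 4, 316 genes were higher, 41 lower and 6 of the 10 genes lower; DESeq2 gave 579 and 226, and voom 110 lower. With no count filter 4 of the 10 genes were lower there, since Adipoq (edgeR adjusted p = 0.116) and Car3 (0.0877) lost their calls. Leaving out 1 more library gave 230 to 328 higher, 18 to 54 lower and 2 to 6 of the 10 genes, with 2 without control 4 or ADQ 2 and 3 without control 2 or ADQ 3. The cause of these moves was not tested. Adipoq rests on 8 to 77 counts per ADQ library. With these same ADQ counts, the SE of its log2 fold change was 1.01 with all controls and 0.50 without control 5.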
